A study of Mus musculus with 6 samples.

Results

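The genes of IL-2, IL-7 and STAT5 signaling were followed in regulatory T cells (Tregs) sorted from mouse tumors. They were chosen by name and comprise 10 genes, all of them found among the 12153 genes measured: the receptor chains *Il2ra*, *Il2rb*, *Il2rg*, *Il7r* and *Il4ra*, the kinase *Jak3*, the transcription factors *Stat5a* and *Stat5b*, and the feedback regulators *Socs2* and *Cish*. RNA-Seq was done on 6 libraries of CD4+CD25+ Tregs from B16.F10 melanoma, a mouse skin tumor line grown in the mice, at day 15 after the tumor cells were given. The 3 control libraries came from mice with a floxed *Nr3c1* (genotype Nr3c1-flox), and the 3 Nr3c1 Foxp3-Cre libraries from mice that also carry a Foxp3-YFP/Cre allele (Nr3c1-flox_Foxp3-YFP/Cre), whose Tregs make Cre under *Foxp3* control and so lose *Nr3c1*, which encodes the glucocorticoid receptor (GR). The labels name no Cre allele for the controls, so Cre and YFP themselves cannot be told apart from the loss of GR. The labels describe a sort on CD45, CD4 and CD25 and the methods of the study one on Foxp3-YFP, and a difference in sorting between the groups cannot be told apart from genotype. Whether each library came from 1 mouse or from pooled mice is not given in the sources used here, so the p-values measure the spread between these libraries.

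IL-2 binds a receptor made of an alpha chain (*Il2ra*, CD25), a beta chain (*Il2rb*) and the common gamma chain (*Il2rg*), while IL-7 and IL-4 each use a private chain (*Il7r*, CD127, and *Il4ra*) with the same gamma chain. The gamma chain carries the kinase Jak3, which with Jak1 phosphorylates STAT5 for IL-2 and IL-7, and the SOCS family proteins CIS (*Cish*) and SOCS2 are made in response to STAT5 and restrain cytokine signaling. Tregs depend on IL-2, carry much CD25 and usually little CD127, and *Il7r* is a known glucocorticoid-induced gene of T cells.

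Because STAT5 and GR are both DNA-binding factors, the promoters of the members were searched for their core sequences, and the matches are shown here to place the values that follow. The windows ran from 250 bases before to 50 bases after the transcription start, from RefSeq on GRCm38.p6, and 8 of the 10 members had one; *Il2rb* and *Socs2* were not in the table of promoters. The STAT palindrome TTCNNNGAA was found in 2 of the members, *Il7r* and *Cish*, and in 8.30% of 32851 promoters of the same length. Each sequence is 30 bases long, 5′ to 3′ on the strand of the gene, with the letters that match in capitals. The *Il7r* match begins at base -142 from the start, at chr15:9529999-9530028 on the minus strand, where GENCODE M21 places no exon. *Cish* holds a pair of matches, which begin at bases 1 and 12, at chr9:107296654-107296683 on the plus strand in an exon of *Cish*.
Il7r: gttcaggagcTTCaggGAAtaccaagatgc
Cish: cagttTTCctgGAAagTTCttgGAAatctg

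The GR core hexamer, TGTTCT or its reverse complement AGAACA, was found in 3 members, *Il2ra*, *Il2rg* and *Jak3*, and in 19.0% of all promoters. Both motifs hold the letters TTC or GAA and so can overlap, but in the members they were matched in different genes. The full GR palindrome, AGAACA and TGTTCT with 3 bases between, was found in 0 of the members and in 3 of 32851 promoters. *Il2ra* had hexamers beginning at bases -16 and 37, of which the first is shown, at chr2:11642764-11642793 on the plus strand. *Il2rg* had one at base -129, at chrX:101268367-101268396 on the minus strand, and *Jak3* one at base -124, at chr8:71676247-71676276 on the plus strand. The *Il7r* window held no such hexamer, but sequence outside these short windows was not searched, so the absence says nothing about GR sites elsewhere. A match is a stretch of letters, and binding was not measured.
Il2ra: atatgagatcacAGAACAgagtaggcacaa
Il2rg: attaatcttgacAGAACAtcaccttagagc
Jak3: aagcctgaaatgTGTTCTagccgcagcaag

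The comparison of control with Nr3c1 Foxp3-Cre Tregs asks how the signaling genes are expressed when Tregs lack GR. Values are log2 CPM (the log2 of counts scaled to the library total) after quantile normalization by the authors, the read depth of each library is unknown, and the fit was limma's moderated test over all 12153 genes with Benjamini-Hochberg adjustment. Of the members, 0 had an adjusted p under 0.05, against 7 of 12153 genes (0.0576%), and 1, *Il7r*, had an unadjusted p under 0.05, against 3.26% of all genes. *Il7r* was also the single member whose groups did not overlap, against 7.41% of all genes. The members had a median log2 fold change of 0.079, with 7 positive and 3 negative, and the median over all genes was -0.0014. The deleted gene *Nr3c1* was at 7.15, 7.59 and 6.88 log2 CPM in the control libraries and at 6.14, 5.45 and 5.90 in the Nr3c1 Foxp3-Cre libraries (log2 fold change -1.38, limma adjusted p = 0.120). Reads of *Nr3c1* therefore remained in the Nr3c1 Foxp3-Cre libraries, and each was below each control. The GR-induced gene *Tsc22d3* (GILZ) fell by 1.56 on the log2 scale (limma adjusted p = 0.0342). That call was lost without a mean-variance trend (adjusted p = 0.221), with the replicate block (0.137), with the fibroblast covariate (0.653) and on leaving out control replicate 3 (0.0712) or Nr3c1 Foxp3-Cre replicate 1, 2 or 3 (0.0639, 0.140 and 0.154), all by limma and with log2 fold changes of -1.52 or lower.

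The *Il7r* gene (ENSMUSG00000003882.5, chr15:9505788-9530176 on the minus strand of mm10, with 8 exons in its principal transcript) encodes the IL-7 receptor alpha chain. It was at 6.78, 7.56 and 6.67 log2 CPM in control replicates 1, 2 and 3 and at 6.59, 5.57 and 6.15 in Nr3c1 Foxp3-Cre replicates 1, 2 and 3. Every Nr3c1 Foxp3-Cre library lay below every control library, but the lowest control and the highest Nr3c1 Foxp3-Cre library were only 0.084 apart, and control replicate 2 and Nr3c1 Foxp3-Cre replicate 2 stood farthest out on either side. The means were 7.01 ± 0.49 (SD, n = 3) and 6.10 ± 0.51 (SD, n = 3), or 128 and 68.7 CPM as geometric means. The log2 fold change was -0.90 (SE, the standard error, 0.28, 95% interval -1.54 to -0.27), a level 0.535 times that of control with an interval from 0.345 to 0.831. The unadjusted p by limma was 0.0104 and the adjusted p 1.0, so the difference did not pass the test over all genes. A lower value at an unadjusted p under 0.05 was found for 1.65% of all genes, groups without overlap with the Nr3c1 Foxp3-Cre libraries below for 3.73%, and a log2 fold change as low or lower for 162 genes. The exact two-sided permutation test gave p = 0.1, the smallest that 3 libraries against 3 allow. In RNA from bulk sorted cells, fewer cells that express a gene and less RNA of it per cell cannot be told apart.

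**Figure D1:**
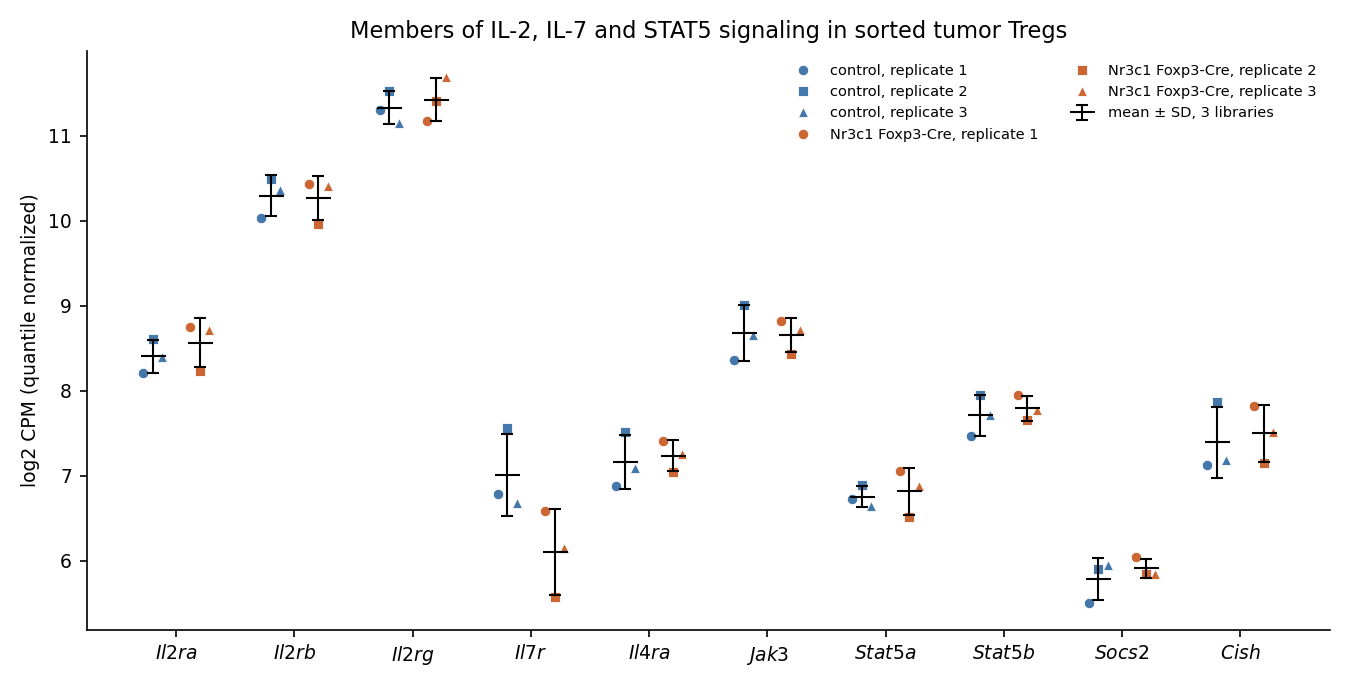
Log2 CPM of each of the 10 members (y axis) in each library, control in blue and Nr3c1 Foxp3-Cre in orange, with the replicate number as marker shape and the mean ± SD of 3 libraries in black. The groups overlap for every member but *Il7r*, whose control libraries lie at 6.67 or above and whose Nr3c1 Foxp3-Cre libraries lie at 6.59 or below.

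The IL-2 receptor chains overlapped between the groups. *Il2ra* (ENSMUSG00000026770.5, chr2:11642807-11693193, plus strand, 8 exons), whose product CD25 was used in the sort that the labels describe, was at 8.20, 8.60 and 8.40 log2 CPM in control Tregs and at 8.75, 8.23 and 8.71 in Nr3c1 Foxp3-Cre Tregs. The lowest Nr3c1 Foxp3-Cre library, replicate 2, was level with the lowest control, and the other two were above every control. The means of 8.40 ± 0.20 (SD, n = 3) and 8.56 ± 0.29 (SD, n = 3) differed by 0.16 (95% interval -0.19 to 0.51, limma unadjusted p = 0.327), less than the SD in either group. The value depended on single libraries: leaving out Nr3c1 Foxp3-Cre replicate 2 gave 0.33 (limma unadjusted p = 0.0384, adjusted p = 1.0), and leaving out control replicate 1, or Nr3c1 Foxp3-Cre replicate 1 or 3, gave 0.063, 0.068 or 0.089. Where cells are gated on CD25, this level describes the gate as well as the cells.

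*Il2rb* (ENSMUSG00000068227.9, chr15:78479256-78495271, minus strand, 10 exons), the beta chain that signals for both IL-2 and IL-15, was at 10.03, 10.49 and 10.36 log2 CPM in control Tregs and at 10.43, 9.96 and 10.41 in Nr3c1 Foxp3-Cre Tregs. The fold change on the log2 scale was -0.026 (95% interval -0.40 to 0.34, limma unadjusted p = 0.878). One library in each group, control replicate 1 and Nr3c1 Foxp3-Cre replicate 2, lay near 10, and the other four lay close together above them. *Il2rg* (ENSMUSG00000031304.18, chrX:101264378-101268255, minus strand, 8 exons), the gamma chain shared by the family, was at 11.30, 11.53 and 11.15 log2 CPM in control Tregs and at 11.18, 11.41 and 11.69 in Nr3c1 Foxp3-Cre Tregs. The fold change on the log2 scale was 0.097 (95% interval -0.27 to 0.46, limma unadjusted p = 0.562), with the highest library Nr3c1 Foxp3-Cre replicate 3 and the lowest control replicate 3. Its exons overlap those of *Gm20489* on the same strand, a gene that has no value in the table.

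*Il4ra* (ENSMUSG00000030748.9, chr7:125552120-125579474, plus strand, 11 exons), the IL-4 receptor chain, which signals mainly through STAT6, was at 6.88, 7.51 and 7.09 log2 CPM in control Tregs and at 7.40, 7.04 and 7.26 in Nr3c1 Foxp3-Cre Tregs. All 3 Nr3c1 Foxp3-Cre libraries lay within the range of the controls. The log2 fold change was 0.073 (95% interval -0.29 to 0.44, limma unadjusted p = 0.664). Its exons overlap *Gm44876* on the opposite strand.

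The kinase *Jak3* (ENSMUSG00000031805.17, chr8:71676296-71690575, plus strand, 25 exons) was at 8.36, 9.01 and 8.66 log2 CPM in control Tregs and at 8.82, 8.43 and 8.71 in Nr3c1 Foxp3-Cre Tregs, which again lay within the range of the controls. Its log2 fold change was -0.022 (95% interval -0.40 to 0.36, limma unadjusted p = 0.900), the smallest in size among the members. Its exons overlap those of *Insl3* on the same strand.

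The neighbors *Stat5a* (ENSMUSG00000004043.14, chr11:100859351-100885169, plus strand, 20 exons) and *Stat5b* (ENSMUSG00000020919.11, chr11:100780731-100850724, minus strand, 19 exons) encode closely related STAT5 proteins. *Stat5a* was at 6.73, 6.89 and 6.64 log2 CPM in control Tregs and at 7.05, 6.52 and 6.87 in Nr3c1 Foxp3-Cre Tregs, with Nr3c1 Foxp3-Cre replicate 1 highest and replicate 2 lowest of all 6 libraries. *Stat5b* was at 7.46, 7.95 and 7.71 in control Tregs and at 7.95, 7.65 and 7.78 in Nr3c1 Foxp3-Cre Tregs, none of which fell below control replicate 1, the lowest library. The log2 fold changes were 0.061 for *Stat5a* (95% interval -0.26 to 0.39, limma unadjusted p = 0.680) and 0.084 for *Stat5b* (95% interval -0.23 to 0.39, limma unadjusted p = 0.556). Within a library, *Stat5a* minus *Stat5b* was -0.96 ± 0.19 (SD, n = 3) in controls against -0.98 ± 0.14 (SD, n = 3) after deletion, so the balance of the pair differed by far less than its spread. Their principal transcripts share 608 windows of 50 bases, 15.8% of those of *Stat5a* and 11.8% of those of *Stat5b*, and reads from these stretches have to be divided between the genes by estimation. *Stat5a* exons also overlap *Stat3* on the opposite strand.

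*Cish* and *Socs2* are genes that STAT5 induces and whose proteins feed back on cytokine receptors. *Cish* (ENSMUSG00000032578.7, chr9:107296026-107302784, plus strand, 3 exons), whose STAT matches are shown above, was at 7.12, 7.87 and 7.18 log2 CPM in control Tregs and at 7.82, 7.15 and 7.51 in Nr3c1 Foxp3-Cre Tregs. Each group held a low and a high library, and the Nr3c1 Foxp3-Cre values lay within the control range (log2 fold change 0.11, 95% interval -0.39 to 0.60, limma unadjusted p = 0.636). *Socs2* (ENSMUSG00000020027.18, chr10:95385362-95417180, minus strand, 3 exons), which also restrains growth hormone signaling, was at 5.50, 5.91 and 5.95 log2 CPM in control Tregs and at 6.04, 5.84 and 5.84 in Nr3c1 Foxp3-Cre Tregs. Control replicate 1 stood below the other 5 libraries, and the log2 fold change was 0.12 (95% interval -0.21 to 0.45, limma unadjusted p = 0.418). *Cish* minus *Socs2* within a library was 1.61 ± 0.37 (SD, n = 3) in controls against 1.59 ± 0.24 (SD, n = 3) after deletion. Their transcripts share 0 windows of 50 bases, and *Cish* overlaps *Gm17040* and *Gm17041* on the opposite strand.

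Over the 9 members other than *Il7r*, log2 fold changes ran from -0.026 to 0.16 and unadjusted p by limma from 0.327 to 0.900. Their 95% intervals together ran from -0.40 to 0.60, or from 0.759 to 1.52 times the control level. The lower end belongs to *Jak3* and the upper end to *Cish*, and the intervals of the other genes were narrower. With 3 libraries a group, changes inside a gene's own interval remain compatible with its values. *Il2ra* minus *Il7r*, the contrast of the IL-2 and IL-7 private chains, was 1.42, 1.04 and 1.73 log2 units in the control libraries and 2.16, 2.66 and 2.56 in the Nr3c1 Foxp3-Cre libraries. The groups of this contrast did not overlap, with means of 1.40 ± 0.35 (SD, n = 3) and 2.46 ± 0.26 (SD, n = 3). The difference of 1.06 was chosen with the *Il7r* values known and is given without a test. It rests mostly on *Il7r*, since the *Il2ra* difference was 0.16.

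**Figure D2:**
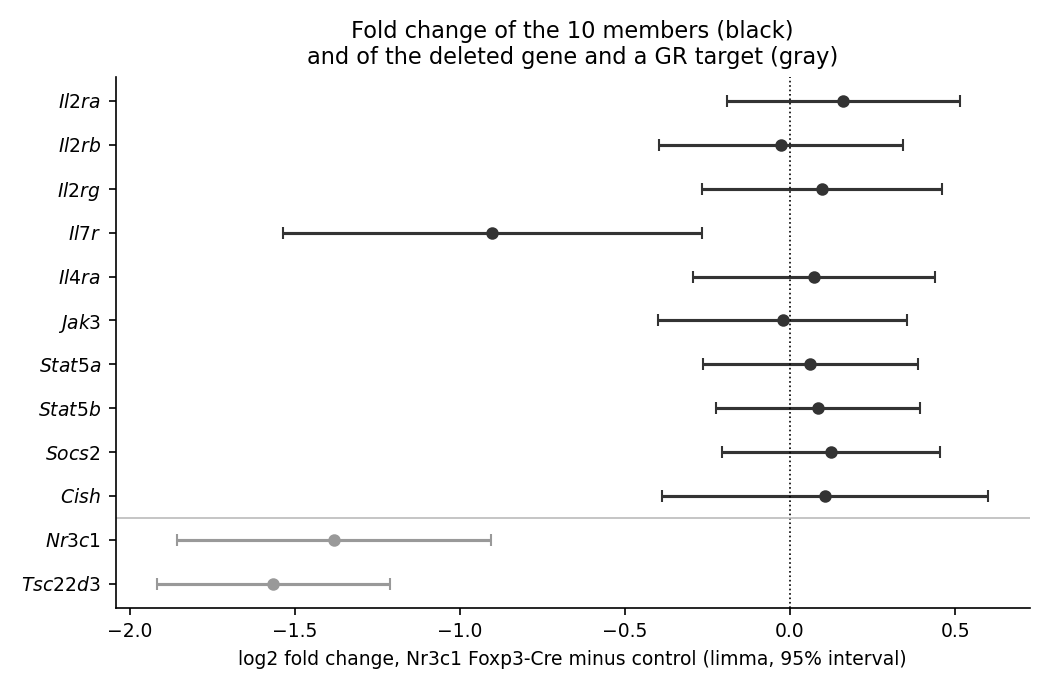
Log2 fold change of each member (black) and of *Nr3c1* and *Tsc22d3* (gray), Nr3c1 Foxp3-Cre minus control on the x axis, with 95% intervals from limma. Among the members, the *Il7r* interval, from -1.54 to -0.27, is the one that lies below 0, and the other 9 span 0.

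Most members had their extreme values in the same libraries. Control replicate 2 was the highest of all 6 libraries for 6 members and control replicate 1 the lowest for 6, while Nr3c1 Foxp3-Cre replicate 1 was highest for 3 and replicate 2 lowest for 3. Of all genes, 19.5% were highest in control replicate 2 and 21.2% lowest in control replicate 1. For Nr3c1 Foxp3-Cre replicate 1 the share highest was 15.0%, and for replicate 2 the share lowest was 19.6%. *Il2rg* departed from the other members, with its highest value in Nr3c1 Foxp3-Cre replicate 3 and its lowest in control replicate 3. Averaged over the 9 members other than *Il7r*, the deviation from each gene's mean over all libraries was -0.25, 0.21 and -0.076 in the controls and 0.18, -0.18 and 0.11 in the Nr3c1 Foxp3-Cre libraries. The T cell markers (*Cd3e*, *Cd4*, *Lck* and 8 more) deviated by -0.22, 0.14, 0.075, 0.0092, -0.084 and 0.074 in the same libraries. The libraries low for T cell markers, control replicate 1 and Nr3c1 Foxp3-Cre replicate 2, were thus the low libraries for these members too, and they were the highest for melanoma markers (0.60 and 0.54). With each library centered on its T cell marker mean, an alternative chosen after seeing the data, the SD within groups was smaller for 9 of the 10 members, *Il2rg* being the exception, with a median of 0.164 in place of 0.250. The same count over all genes is not given here, so it cannot be read as particular to the members. *Il7r* was then at 7.0, 7.42 and 6.60 in control Tregs and at 6.58, 5.66 and 6.07 in Nr3c1 Foxp3-Cre Tregs, with a log2 fold change of -0.90 (95% interval -1.49 to -0.32). *Il7r* deviated from its own mean by 0.23, 1.01, 0.12, 0.034, -0.98 and -0.41 in the same libraries. These deviations hold the difference between the groups, so every control lies above 0. Among the controls alone, replicate 1 was the lowest for the mean of the other 9 members. For *Il7r* it lay between replicate 3 and replicate 2.

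**Figure D3:**
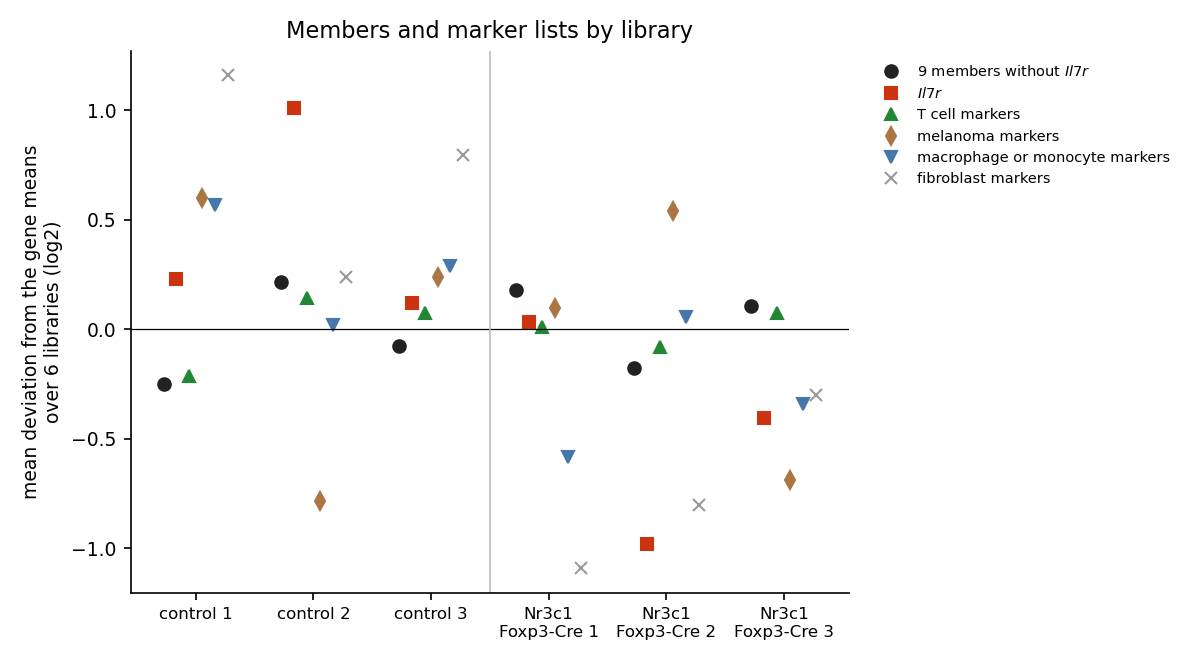
Mean deviation from the gene means over all 6 libraries (y axis, log2) of the 9 members other than *Il7r*, of *Il7r* alone and of 4 marker lists, by library, with a gray line between the groups. The 9 members and the T cell markers lie low in control replicate 1 and Nr3c1 Foxp3-Cre replicate 2, and the fibroblast markers lie above 0 in every control library and below 0 in every Nr3c1 Foxp3-Cre library.

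RNA of other cells was present in the sorted fractions. The 11 T cell markers were all measured and summed to 6757 to 8275 CPM in control and 7414 to 8138 CPM in Nr3c1 Foxp3-Cre Tregs, with *Lck* the highest, and *Cd3e* and *Cd4* had log2 fold changes of -0.045 and -0.021. *Foxp3*, the defining Treg factor, was low at 3.39, 4.42 and 3.91 log2 CPM in control and 4.47, 3.50 and 3.90 in Nr3c1 Foxp3-Cre Tregs, while *Tnfrsf4*, the highest of the 10 Treg markers, was at 10.64 ± 0.26 and 10.52 ± 0.14 (SD, n = 3 each). *Cd8a* had no value in the table, and *Cd8b1* was at 7.62 to 15.6 CPM in control and 10.2 to 12.8 CPM in Nr3c1 Foxp3-Cre Tregs. The 8 melanoma markers, led by *Dct*, summed to 4394 to 11726 CPM in control and 4925 to 11986 CPM in Nr3c1 Foxp3-Cre Tregs.

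The marker lists of fibroblasts and macrophages had lower values in the Nr3c1 Foxp3-Cre libraries, although 0 of their genes had an adjusted p under 0.05 by limma. The 6 fibroblast markers, led by *Col3a1*, summed to 191 to 466 CPM in control and 78.1 to 173 CPM in Nr3c1 Foxp3-Cre Tregs, and all 6 had negative log2 fold changes (median -1.55), 3 of them at an unadjusted p under 0.05. The 12 macrophage or monocyte markers, led by *Lyz2*, summed to 402 to 592 and 285 to 569 CPM, and all 12 had negative log2 fold changes (median -0.56), 0 of them at an unadjusted p under 0.05. Of 9 genes of naive or central memory T cells, a group in which *Il7r* is also expressed, 8 had positive log2 fold changes and 1, *Ccr7*, a negative one. Genes of that list at an unadjusted p under 0.05 included *Ccr7* (-0.61), its highest gene, and *Bach2* (0.76) and *Foxp1* (0.36), which were named after their values were seen. The part of these cell types in the *Il7r* difference was not tested. Fits that hold a marker mean constant cannot test it, because the macrophage and fibroblast means differ between the groups and so share variation with genotype. With the macrophage marker mean as a covariate, the *Il7r* log2 fold change was -1.79 (limma adjusted p = 0.0357, with 12 of 12153 genes, or 0.0987%, called). The same fit gave a negative log2 fold change for 9 of the 10 members and for 50.2% of all genes. In it 7 members were lower at an unadjusted p under 0.05, against 7.64% of all genes. Beside *Il7r* these were *Il2ra* (-0.30), *Il2rb* (-0.50), *Il4ra* (-0.40), *Jak3* (-0.52), *Stat5b* (-0.29) and *Cish* (-0.58), with unadjusted p by limma from 0.00310 for *Jak3* to 0.0471 for *Stat5b* and adjusted p from 0.166 to 0.335. Of these, *Il2ra*, *Il4ra*, *Stat5b* and *Cish* had positive values without the covariate. Most members had their extremes in the same libraries, so the members do not count as separate results in this fit. With the fibroblast marker mean, added after seeing the data, the *Il7r* log2 fold change was -1.89 (limma unadjusted p still under 0.05, with 0 genes called after adjustment).

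Of the other lists, 2 of 6 B cell markers were measured, led by *Ighm* at 9.27 ± 0.21 and 9.51 ± 0.21 log2 CPM (SD, n = 3 each), and 3 of 6 dendritic cell markers, led by *Zbtb46* at 4.89 ± 0.25 and 4.83 ± 0.15. One of 5 granulocyte markers, *Mmp9*, was measured, at 5.10 ± 0.40 and 5.10 ± 0.23. Of 4 NK cell markers 0 had a value, and of 4 endothelial markers 2 did. The higher of these, *Pecam1*, was at 5.57 ± 0.10 and 5.85 ± 0.11 (limma unadjusted p = 0.0436, adjusted p = 1.0). Its Nr3c1 Foxp3-Cre libraries all lay above the controls. The other, *Kdr*, named after its values were seen, had a log2 fold change of -0.13 (limma unadjusted p = 0.882) and overlapping groups.

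The *Il7r* difference kept its direction in all 20 alternative fits, with an unadjusted p by limma under 0.05 in each. These fits re-use the same libraries and do not count as independent support. Because its groups did not overlap, leaving out 1 library could not reverse it. The fits without a trend, with robust eBayes, vooma weights, the minimum mean or the replicate block leave the estimate of -0.90 unchanged. Their direction was therefore fixed in advance. The size of the difference depended on single libraries. Leaving out control replicate 2 gave a log2 fold change of -0.62, leaving out Nr3c1 Foxp3-Cre replicate 2 one of -0.64, and leaving out Nr3c1 Foxp3-Cre replicate 1 one of -1.14. With sample quality weights it was -0.59, a fit in which control replicate 3 had a weight of 7.47 and each other library one below 1. The range of unadjusted p by limma was from 1.26e-05 to 0.0382, and that of adjusted p from 0.0357 to 1.0.

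**Figure D4:**
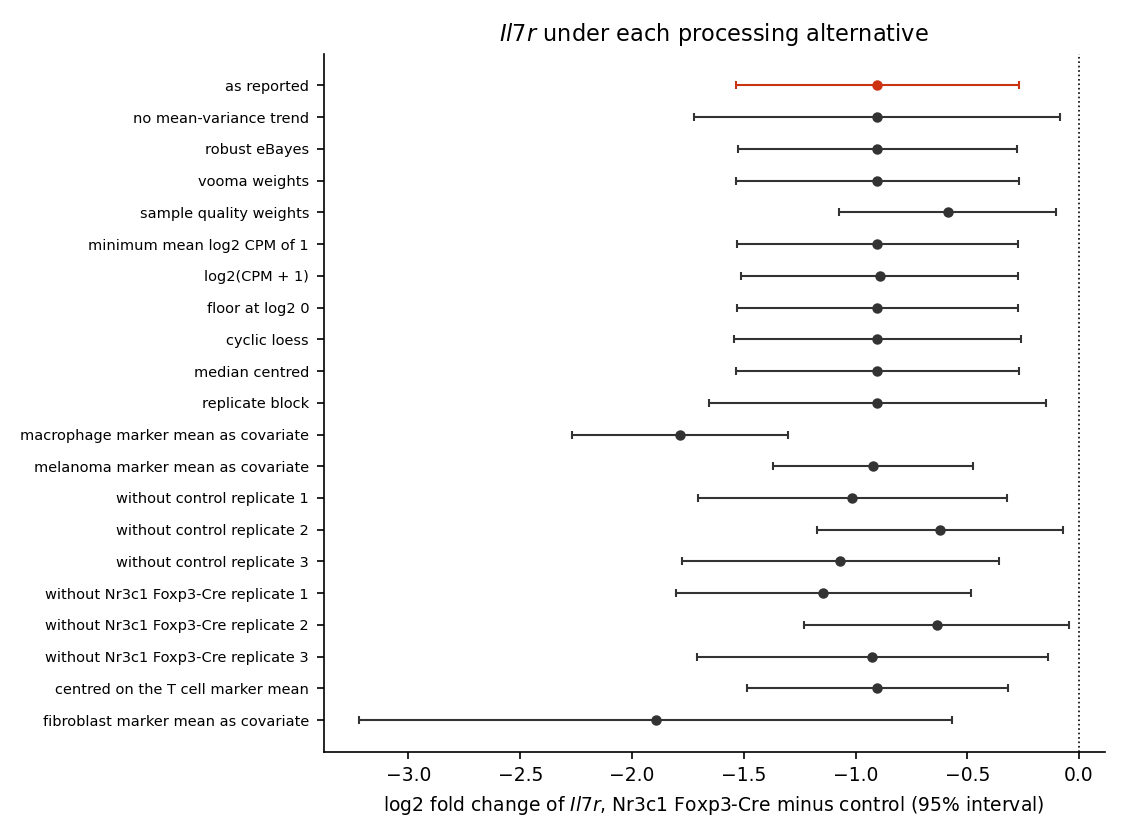
Log2 fold change of *Il7r* (x axis, Nr3c1 Foxp3-Cre minus control) with its 95% interval as reported (red) and under each of 20 alternatives (black). All intervals lie below 0, and the estimates run from -1.89 to -0.59.

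Levels can be compared between the members only per length of transcript. In control Tregs, *Il2rg* led at 10.59 log2 CPM per kb of its principal transcript, followed by *Il2rb* at 8.22, *Jak3* at 6.67, *Il2ra* at 6.26 and *Cish* at 5.88. *Stat5b* followed at 5.33, then *Il7r* at 5.18, *Stat5a* at 4.79, *Il4ra* at 4.77 and *Socs2* at 4.63. The gamma chain thus stood well above each private receptor chain. Of neighbors in this order, the control libraries did not overlap between *Il2rg* and *Il2rb*, *Il2rb* and *Jak3*, and *Cish* and *Stat5b*, and overlapped for the other pairs. In Nr3c1 Foxp3-Cre Tregs *Il7r*, at 4.28 ± 0.51 log2 CPM per kb of principal transcript (SD, n = 3), had the lowest mean of the 10 members, against rank 7 in control Tregs. The next lowest was *Socs2* at 4.76 ± 0.12 (SD, n = 3). Overlap between neighbors was examined in the control libraries alone. With merged exons as the length, an alternative added after seeing the data, *Cish* moved to rank 7 and *Il7r* to rank 6 in control Tregs, and the first 4 ranks stayed. In Nr3c1 Foxp3-Cre Tregs *Il7r* was then at rank 9, with 3.88 log2 CPM per kb, above *Socs2* at 2.65.

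The wider pathway was described with lists of 76 other genes, of which 68 were measured. By limma, 0 of these had an adjusted p under 0.05, and 2 of them, 2.94%, an unadjusted p under 0.05, against 3.26% of all genes. They had 36 positive and 32 negative log2 fold changes with a median of 0.0071, and the groups did not overlap for 3, or 4.41%. Each of these shares is near that of all genes or below it.

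Among the ligands, *Il15*, which signals through *Il2rb* and *Il2rg*, was the single one of 8 with a value, at 0.46 ± 0.24 and 0.86 ± 0.54 log2 CPM (SD, n = 3 each), and *Il2*, *Il4*, *Il7*, *Il9*, *Il13*, *Il21* and *Tslp* had none. All 5 other receptor chains were measured and none had an unadjusted p under 0.05. Their log2 fold changes were -0.068 for *Il15ra*, 0.13 for *Il9r*, -0.070 for *Il21r*, -0.44 for *Il13ra1* and -0.19 for *Crlf2*, the TSLP receptor chain that pairs with *Il7r*. *Crlf2* was at 4.41 ± 0.35 log2 CPM in control and 4.22 ± 0.22 in Nr3c1 Foxp3-Cre Tregs (SD, n = 3 each), with overlapping groups. Its log2 fold change was -0.70 with the macrophage covariate (limma unadjusted p = 0.0196, adjusted p = 0.257) and from -0.39 to -0.054 on leaving out control replicate 1 or control replicate 2.

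The other Jak kinases had log2 fold changes of 0.20 for *Jak1*, the partner of Jak3, 0.11 for *Jak2* and 0.11 for *Tyk2*, with overlapping groups. Among the other STAT genes, the log2 fold changes were 0.12 for *Stat3*, -0.037 for *Stat4* and 0.088 for *Stat6*, the factor downstream of *Il4ra*, also with overlapping groups. Of 7 adaptor and PI3K genes, 5 were positive and 2 negative (median 0.057), and of 13 SOCS proteins and phosphatases, 6 were positive and 7 negative (median -0.0078). None of these 27 genes had an unadjusted p under 0.05.

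Of 36 STAT5 response genes, 35 were measured, with 17 positive and 18 negative log2 fold changes and a median of -0.0011. *Id2*, an inhibitor of E protein transcription factors, was at 9.09, 9.64 and 9.22 log2 CPM in control Tregs and at 8.78, 8.47 and 8.64 in Nr3c1 Foxp3-Cre Tregs. All Nr3c1 Foxp3-Cre libraries were below all controls, a difference of -0.69 on the log2 scale (SE 0.15, limma adjusted p = 0.544). The cytokine gene *Osm* was at 4.61, 4.74 and 4.61 log2 CPM in control Tregs and at 5.01, 4.90 and 5.17 in Nr3c1 Foxp3-Cre Tregs, above every control, for a log2 fold change of 0.38 (SE 0.14, limma unadjusted p = 0.0260, adjusted p = 1.0). Both genes respond to other signals as well, and neither passed the test over all genes in the fit on genotype alone. *Id2* passed it with the macrophage covariate (-1.09, limma adjusted p = 0.0357) and with the melanoma covariate (-0.70, limma adjusted p = 0.0450).

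**Figure D5:**
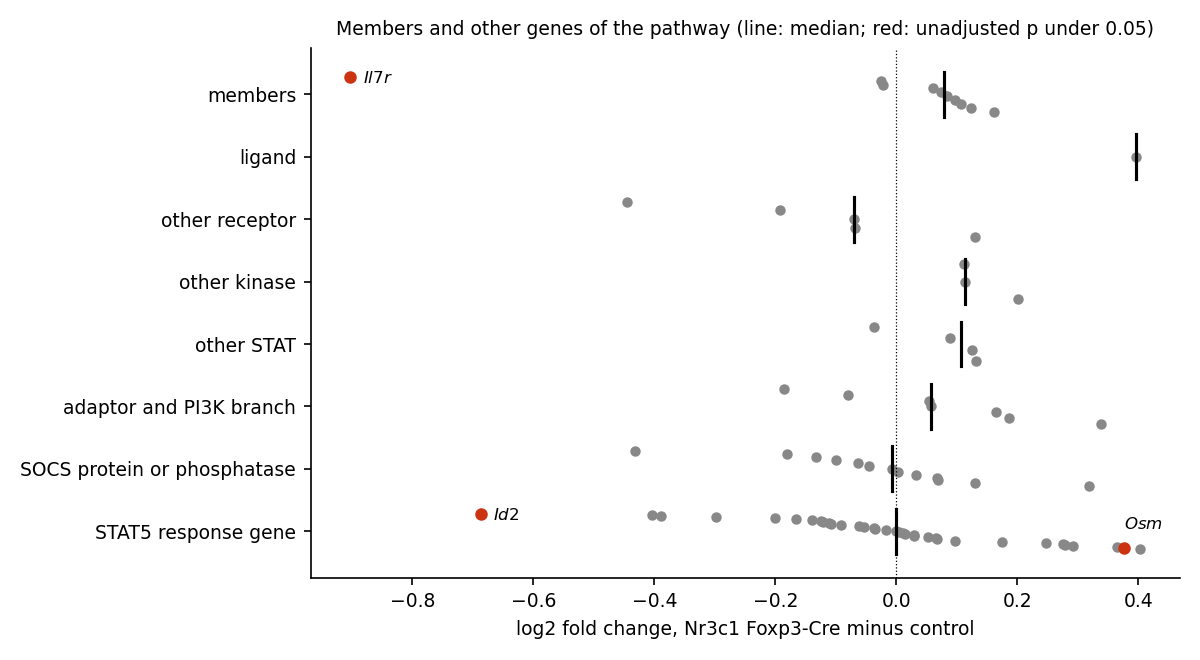
Log2 fold change (x axis, Nr3c1 Foxp3-Cre minus control) of the 10 members and of the 68 measured genes of the wider pathway, 1 point a gene, by list, with the median of each list as a black line and unadjusted p under 0.05 in red. *Il7r* has the lowest value of all genes drawn, *Id2* the next lowest, and apart from the single ligand the list medians run from -0.070 to 0.11.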

How the data were processed

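RNA-Seq of 6 libraries (3 control, 3 Nr3c1 Foxp3-Cre) was grouped by the genotype in the sample labels. Per the methods and labels, the authors used Cutadapt for trimming, STAR for alignment (mm10) and RSEM with GENCODE M21 for gene counts, then dropped genes of low CPM and applied quantile normalization before limma-voom. What they deposited is log2 CPM from after that step, each library summing to 999633 CPM on the linear scale, and quantile normalization sets the same distribution of values in every library. Depth is unknown, voom weights could not be recomputed from these values, and precision is limited by the number of libraries. Here limma 3.58.1 (R 4.3.3) was run over all 12153 genes (lmFit, then eBayes with a mean-variance trend) on genotype alone, with Benjamini-Hochberg adjustment at 0.05, and the fit was tested on simulated data. Exact permutation tests used scipy 1.17.1. Positions and transcript lengths came from GENCODE M21 on mm10, which matched 12130 genes, and promoters from RefSeq on GRCm38.p6. Members and lists were chosen with earlier results of these data known. All 10 members were named, with *Nr3c1* and *Tsc22d3*, pathway genes with an unadjusted p under 0.05 (at most 3 in each direction per list), every measured ligand, other receptor, Jak and STAT (apart from an item not reported here), and of each marker list the highest gene, with *Foxp3*, *Cd4*, *Cd3e* and *Cd8a*. Alternatives were eBayes without a trend or robust, sample quality weights, vooma weights, log2(CPM + 1), a minimum mean log2 CPM of 1, a floor at log2 0, cyclic loess, median centering on genes with a mean of at least 5, the replicate number as a block, marker means as covariates, leaving out each library, and, chosen after seeing the data, centering on T cell markers, the fibroblast covariate and merged exon lengths.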

Additional observations from a re-analysis of the deposited data

How the results depend on the processing

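Over all genes, 7 were called by limma at an adjusted p under 0.05 (396 at an unadjusted p under 0.05). The count was 0 without a mean-variance trend, with the replicate block and with the fibroblast covariate, 19 with sample quality weights, 12 with the macrophage covariate, 18 with the melanoma covariate, and from 0 to 8 with 1 library left out (0 on leaving out control replicate 3 or Nr3c1 Foxp3-Cre replicate 2, and 1 on leaving out either other Nr3c1 Foxp3-Cre library). Of the members, 0 were called except for 1 with the macrophage covariate, and 1 had an unadjusted p under 0.05. Of the pathway genes, 0 were called except for 3 with the macrophage covariate and 1 with the melanoma covariate, and 2 had an unadjusted p under 0.05. Same-numbered libraries had correlations of -0.117, -0.329 and -0.0246 between their deviations, so no pairing by number was seen. With 3 libraries a group, these values cannot settle whether same-numbered libraries were handled together. With the replicate block, *Il7r* had a log2 fold change of -0.90 at an unadjusted p of 0.0252.

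Over 27 single genes, 489 of 539 values kept their direction and 50 reversed, none of these for *Il7r*. Several alternatives leave the estimate unchanged: no trend, robust eBayes, vooma weights, the minimum mean and the replicate block. They could not reverse a direction, so the count of kept directions was partly fixed in advance and does not measure robustness. The macrophage and fibroblast marker means differ between the groups, so those covariates share variation with genotype. With the macrophage covariate, log2 fold changes were -0.30 for *Il2ra*, -0.40 for *Il4ra*, -0.30 for *Stat5a*, -0.29 for *Stat5b*, -0.16 for *Socs2*, -0.58 for *Cish*, -0.35 for *Il9r*, -0.017 for *Jak1*, -0.11 for *Jak2*, -0.24 for *Tyk2*, -0.046 for *Stat3* and -0.030 for *Stat6*, and *Il2rb* and *Jak3* went to -0.50 and -0.52. With the fibroblast covariate they were -0.16 for *Il2ra*, -0.57 for *Il4ra*, -0.18 for *Stat5a*, -0.46 for *Stat5b*, -0.35 for *Socs2*, -0.77 for *Cish*, 0.12 for *Il15ra*, -0.29 for *Il9r*, 0.16 for *Il13ra1*, -0.10 for *Jak1*, -0.20 for *Jak2*, -0.23 for *Tyk2*, -0.43 for *Stat3* and -0.045 for *Stat6*. With sample quality weights they were 0.011 for *Jak3*, -0.0040 for *Socs2*, 0.040 for *Il15ra*, -0.034 for *Il9r* and 0.13 for *Stat4*. With 1 library left out they ranged from 0.063 to 0.33 for *Il2ra*, -0.16 to 0.13 for *Il2rb*, -0.035 to 0.22 for *Il2rg*, -0.066 to 0.25 for *Il4ra*, -0.18 to 0.15 for *Jak3*, -0.057 to 0.21 for *Stat5a*, -0.040 to 0.21 for *Stat5b*, -0.019 to 0.21 for *Socs2*, -0.056 to 0.35 for *Cish*, -0.13 to 0.018 for *Il15ra*, -0.12 to 0.26 for *Il9r*, -0.19 to 0.056 for *Il21r*, -0.024 to 0.21 for *Tyk2* and -0.14 to 0.14 for *Stat4*. The cause was not tested. The minimum mean value removed *Il15*. Depth is unknown, so its effect cannot be stated.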
